A study of Mus musculus with 4 samples.

Results

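The proteasome is the barrel-shaped protease that degrades most ubiquitin-tagged protein in the cytosol and nucleus. Its core particle is a stack of alpha rings, which gate the entrance, and beta rings, of which the Psmb5, Psmb6 and Psmb7 products carry the proteolytic sites. A regulatory particle on the end of the core, built from ATPases (Psmc genes) and non-ATPases (Psmd genes), binds ubiquitin chains, removes them and unfolds the substrate, while the alternative activators (Psme genes) open the gate without ATP. In lymphocytes and under interferon gamma the catalytic subunits can be exchanged for Psmb8, Psmb9 and Psmb10, which form the immunoproteasome and shape the peptides shown on MHC class I.

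The proteasome genes described here were chosen by symbol alone: rows whose mouse symbol starts with Psm, then one letter from a to g, then a digit, leaving out the immunoproteasome genes Psmb8, Psmb9 and Psmb10 and pseudogenes. Of 54 matching rows, 3 immunoproteasome genes and 4 pseudogenes were left out, and 47 genes remained of the 54544 genes with a symbol. By role, 8 encode alpha ring and 8 beta ring subunits, 6 are ATPases and 11 non-ATPases of the regulatory particle, 6 are activators or an inhibitor, and 7 are assembly chaperones. The remaining gene, Psmc3ip, matched by symbol only: its product is a cofactor of meiotic recombination and not a subunit.

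RNA was sequenced from NK cells and T cells sorted out of subcutaneous tumours of CT26, a mouse colon carcinoma line, grown in BALB/c mice, the strain the line comes from. Each mouse received 500000 tumour cells in 200 uL, and no genotype, drug or other treatment is named for either group, nor are the age of the mice, the time of collection or the sort gate. There were 2 libraries of each cell type: replicate 1 was pooled from 4 mice and replicate 2 from 6, so NK pool 1 and T pool 1 share a pool number, as do both pool 2 libraries. With 2 pools a group, p-values rest on the spread between pools, taken over many genes, and not on that between single mice.

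Levels are given as normalized CPM, reads per 1 M of a library size scaled by the TMM factor, without correction for gene length. The libraries held 2067728 (T pool 1) to 2893240 reads (T pool 2), and 1 read was worth 0.354 to 0.551 normalized CPM. Ribosomal RNA rows took 36.9% and 38.8% of reads in the NK libraries, 52.4% in T pool 1 and 42.7% in T pool 2. Marker genes followed the labels: 7 NK cell markers summed to 10556 and 8269 normalized CPM in NK pools 1 and 2 against 162.4 and 135.4 in T pools 1 and 2, and 9 T cell markers to 282.7 and 229.4 against 3548 and 3244. Of other cell types, 12 macrophage and monocyte markers were also read, at a summed 1034 and 221.2 in NK pools 1 and 2 and 238.4 and 27.6 in T pools 1 and 2, and of 5 carcinoma markers, Krt8, Krt18, Krt19 and Cldn7 were at 0 in all 4 libraries while Epcam was at 0 and 2.48 in NK pools 1 and 2 and 6.61 and 2.83 in T pools 1 and 2. In these bulk libraries, fewer cells of a type and less RNA per cell cannot be told apart.

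The start regions of the genes give the DNA context of the subunit classes. RefSeq promoter windows (GRCm38.p6), 300 bases long with 250 before and 50 after the annotated start, were found for 39 of the 47 genes in 42 windows. No window was matched to Psma8, Psmb1, Psmb2, Psmb7, Psmc3, Psmd3, Psmd7 or Psmg2. Below, the stretch upstream of the start is shown for an ATPase gene, Psmc6, and a ubiquitin receptor gene, Psmd4, which hold the letters CCGGAAG (a core letter pattern of ETS factors), for an alpha ring gene, Psma1, with the CCAAT box on both strands, and for the catalytic Psmb6, with neither. The Psmd4 stretch also holds the CCAAT box, on the reverse strand. Capitals mark either of these patterns or its reverse complement, and bases inside the gene as annotated by GENCODE are left off. The coordinates are chr14:45329574-45329787 on the plus strand for Psmc6, chr3:95042615-95042864 on the minus strand for Psmd4, chr7:114276119-114276366 on the minus strand for Psma1 and chr11:70525107-70525356 on the plus strand for Psmb6.
Psmc6: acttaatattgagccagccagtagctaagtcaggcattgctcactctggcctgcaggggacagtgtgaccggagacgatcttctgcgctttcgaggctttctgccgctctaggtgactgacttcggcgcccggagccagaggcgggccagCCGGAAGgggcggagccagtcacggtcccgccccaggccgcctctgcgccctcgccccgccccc
Psmd4: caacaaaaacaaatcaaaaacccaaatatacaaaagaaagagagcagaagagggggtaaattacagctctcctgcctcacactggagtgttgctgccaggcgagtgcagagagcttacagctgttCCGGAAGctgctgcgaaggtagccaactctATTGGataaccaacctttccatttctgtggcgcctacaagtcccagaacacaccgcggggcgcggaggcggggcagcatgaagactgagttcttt
Psma1: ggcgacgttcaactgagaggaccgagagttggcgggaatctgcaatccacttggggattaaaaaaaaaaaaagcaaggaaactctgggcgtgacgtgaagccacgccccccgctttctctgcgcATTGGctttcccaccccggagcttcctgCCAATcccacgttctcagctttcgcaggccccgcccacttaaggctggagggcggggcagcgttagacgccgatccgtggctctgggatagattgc
Psmb6: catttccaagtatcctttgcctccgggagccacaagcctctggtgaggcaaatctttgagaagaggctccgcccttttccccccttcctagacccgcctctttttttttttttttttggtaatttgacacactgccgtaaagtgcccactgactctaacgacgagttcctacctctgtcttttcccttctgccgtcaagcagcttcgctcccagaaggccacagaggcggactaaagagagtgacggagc

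In all, 10 letter patterns were searched on both strands. CCGGAAG was in 16 of the 42 windows (38.1%), against 8.86% of all 32851 windows in the table and 19.01% of the 11046 windows of genes tested for expression. Among the regulatory particle genes it was in 10 of 15 windows, and among the core particle genes in 1 of 13, that of Psma6. CCAAT ran the other way, in 7 of 13 core windows and 4 of 15 regulatory windows, with 33.3% of the members' windows against 37.4% of all and 37.5% of those of tested genes. The GC box GGGCGG was in 54.8% of the members' windows, against 35.7% of all and 62.5% of those of tested genes. These are counts of windows and not of genes, as the 42 windows belong to 39 genes. The CCGGAAG matches include Psmc3ip, which is no subunit, and the core CCAAT matches include Psmb11, which had 0 reads.

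TGACNNNGC, the core of the antioxidant response element that Nfe2l1 and Nfe2l2 recognise, was in 6 of 42 member windows (14.3%), against 12.4% of all windows and 14.3% of those of tested genes. The longer antioxidant response element, which has one more base in front, and the MAF and AP-1 composite TGACTCAGC both contain it; they were in none of the member windows, in 2.13% and 0.454% of all and in 2.07% and 0.371% of those of tested genes. The palindrome bound by NRF1 was in 2 member windows (4.76%, against 0.971% of all and 2.16% of those of tested genes). Here NRF1 is nuclear respiratory factor 1 and not Nfe2l1, which also goes by that name. CTCGCGAGA was in 1 member window (2.38%, against 0.676% and 1.57%). The E2F pattern TTTCGCGC was in 0 (0.323% of all and 0.670% of those of tested genes), and a longer ETS pattern, which contains CCGGAAG, in 1 (0.152% and 0.380%). Such matches are descriptions of these windows and not evidence of binding.

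Of the 47 genes, 45 had a mean of at least 1 normalized CPM and were tested, among 12105 genes in all. The other two were tissue-restricted core subunits: Psma8, the germ-cell alpha subunit, had 4 reads, all in NK pool 2, and Psmb11, the catalytic subunit of thymic cortical epithelium, had 0 reads in all 4 libraries, where 3 reads would be worth 1.06 to 1.65 normalized CPM. The 45 had between 24 reads (Psmc3ip) and 2321 reads (Psma2) over the 4 libraries together.

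No proteasome gene passed the test between NK and T cells. In limma on log2(normalized CPM + 1), with Benjamini-Hochberg adjustment over all genes tested and a threshold of 0.05, 280 genes (2.31%) passed, 148 higher in NK (1.22%) and 132 higher in T cells (1.09%), and 0 of the 45 members were among them. Unadjusted p was under 0.05 for 0 members, against 12.8% of all genes tested. The count of members called was also 0 with edgeR (2.73% of all genes called), with DESeq2 (3.64%) and with limma blocked on the pool number (8.28%), and the lowest adjusted p in limma was 0.457, for Psmb2. The smallest log2 fold change among the genes called was 1.31 in size, while the members ran from -0.37 (Psmd9) to 0.90 (Psmg1), with standard errors of 0.30 to 0.82. These standard errors are moderated: limma draws each gene's spread towards that of genes of similar level. They can therefore be far from the gene's own gap between pools.

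**Figure D1:**
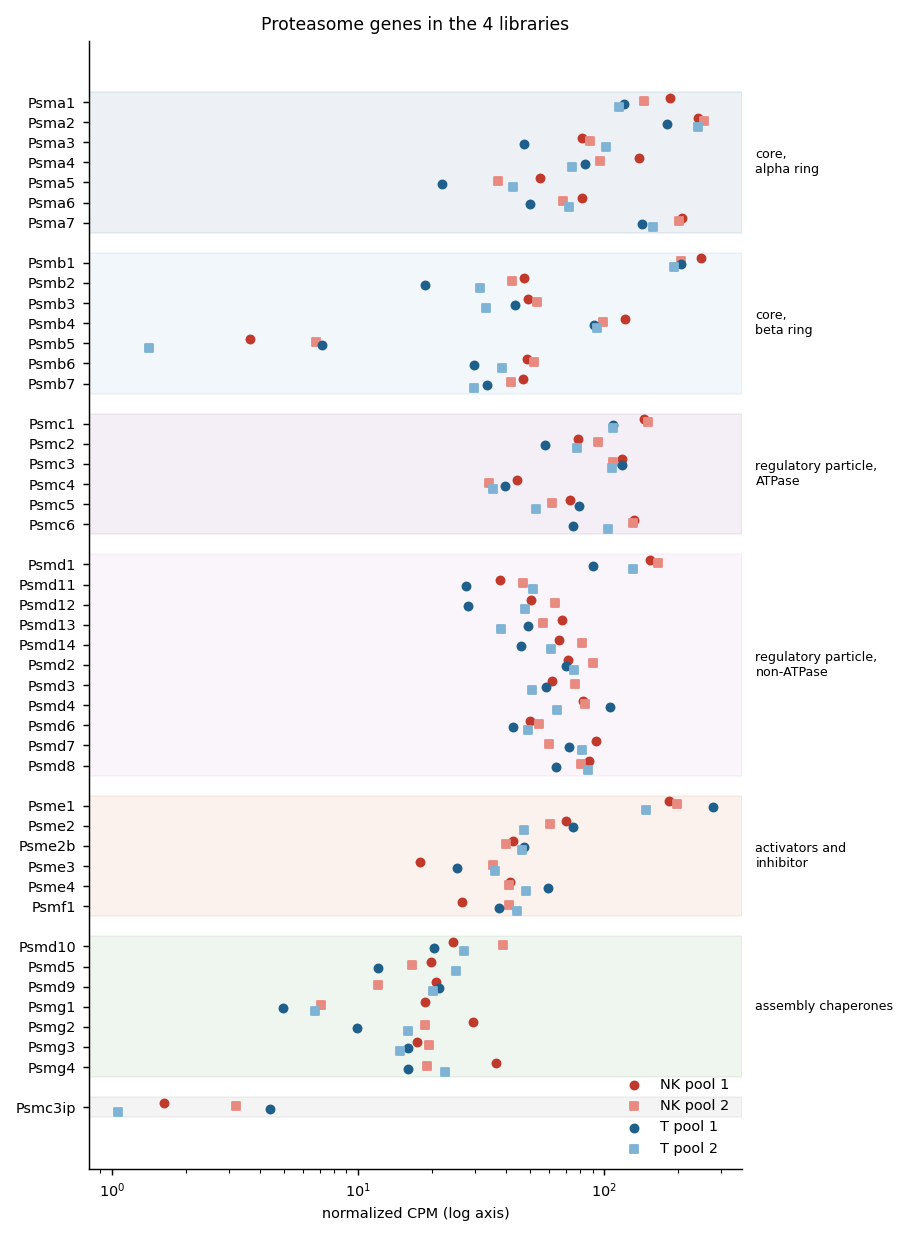
Normalized CPM (log axis) of the 45 tested proteasome genes in each of the 4 libraries, grouped by role, with NK libraries in red, T libraries in blue, circles for pool 1 and squares for pool 2. For most genes the red and blue points lie close together or overlap, while Psmb5 runs from 1.42 in T pool 2 to 7.16 in T pool 1.

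The differences, none past the test, were small and mostly on the NK side. The log2 fold change, NK minus T, was above 0 for 37 of 45 members, where 50.9% of all genes tested were above 0, and its median was 0.28, against 0.02 for all genes tested. Both NK values lay above both T values for 22 members (48.9%, against 22.1% of all genes), and both T values above both NK values for 2 (4.44%, against 21.3%), Psme2b and Psme4. Within pool 1 NK exceeded T for 33 members (49.8% of all genes), within pool 2 for 31 (50.6%) and within both for 24 (31.1%), while T exceeded NK within both for 5 (29.9%). All members were read in the same 4 libraries, so these counts are a description and carry no test. The number of members above 0 ranged from 32 to 38 over the alternative settings.

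T pool 1 held the lowest value of the 4 libraries for 23 of the 45 members, against 29.6% of all genes tested. It was also the library with the most ribosomal RNA, as given above. With values rescaled to totals that leave out the ribosomal RNA rows, 35 members were above 0 and their median was 0.25. The difference between groups exceeded both gaps between pools for 17 members (37.8%, against 30.7% of all genes), and the median gap between pools was 0.26 for NK and 0.39 for T libraries on the log2 scale, against 0.50 and 0.63 over all genes.

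**Figure D2:**
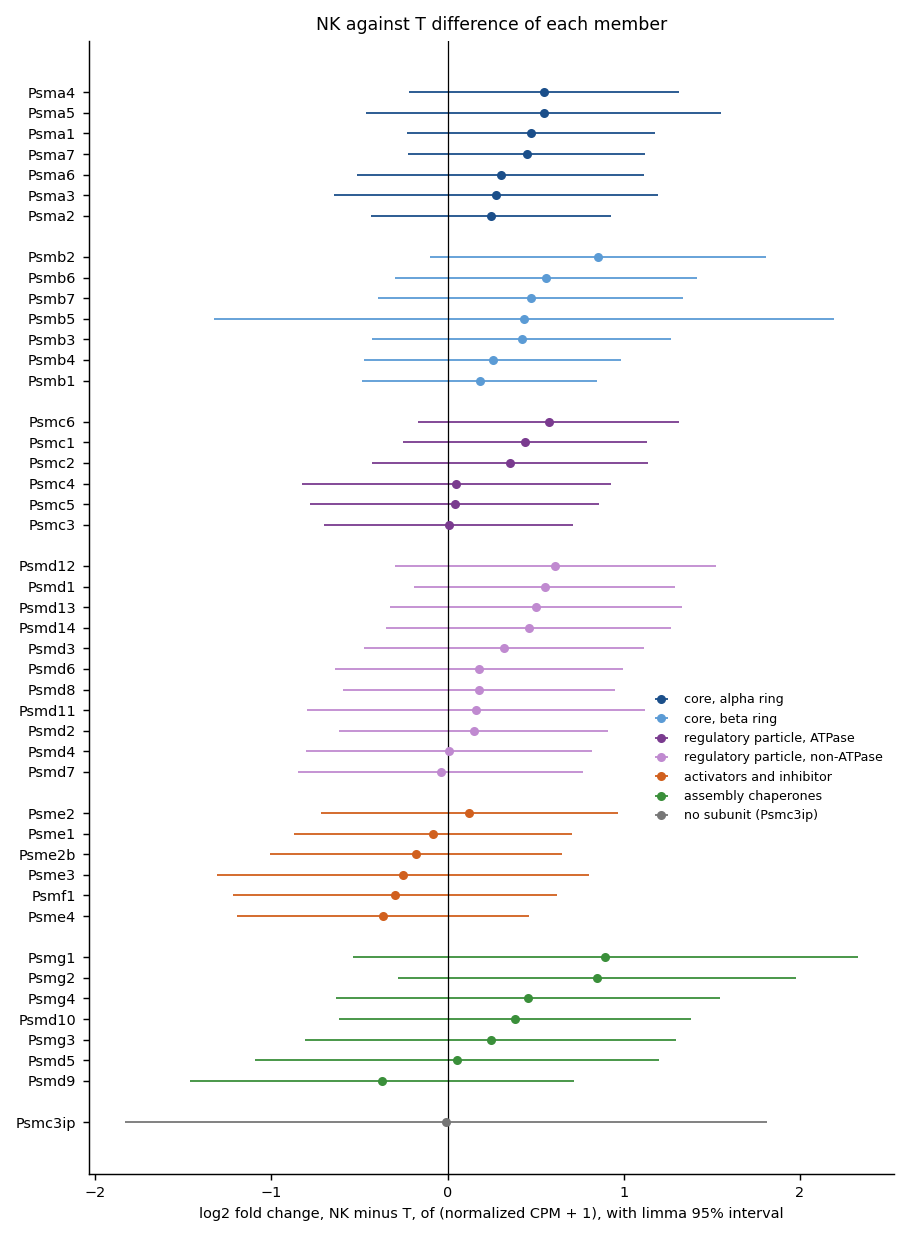
Log2 fold change, NK minus T, of (normalized CPM + 1) for each of the 45 tested genes, with limma's 95% interval, ordered by size within each role. Every interval includes 0, and the points of the core lie between 0.18 (Psmb1) and 0.85 (Psmb2).

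The core particle genes were all on the NK side in mean without any passing the test. All 14 tested members had a log2 fold change above 0, against 50.9% of all genes tested. Their median was 0.44 (0.45 for the alpha ring and 0.44 for the beta ring). For 10 of the 14 both NK values lay above both T values (71.4%, against 22.1% of all genes tested). Their lowest adjusted p was 0.457. Within pool 1 the median difference was 0.58, and within pool 2 it was 0.34. The alpha ring median was 0.08 without T pool 1, and the beta ring median kept to between 0.26 and 0.50 over the alternatives.

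Psma2 and Psma4, structural subunits of the alpha ring, mark its lowest and highest fold change. Psma4 (chr9:54950790-54958030) was read at 139.1 and 96.4 normalized CPM in NK pools 1 and 2, and at 84.3 and 74.1 in T pools 1 and 2. Its groups did not overlap, and the log2 fold change was 0.55 (SE 0.35, limma adjusted p = 0.564), or 0.28 without NK pool 1. Its exons overlap a gene on the opposite strand, AY074887, and reads of both cannot be told apart without a stated strand setting. Psma2 (chr13:14613240-14674236) had 241.6 and 254.6 in NK cells and 181.2 and 241.0 in T cells, with only T pool 1 standing lower, for a log2 fold change of 0.25 (SE 0.31, adjusted p = 0.795), or 0.04 without T pool 1. Psma1, whose upstream bases are shown above, had 185.5 and 145.4 against 121.1 and 114.8. In Psma3 and Psma5 the T pools were far apart, at 47.4 and 102.4 for Psma3 and at 22.0 and 42.9 for Psma5, and the T pool 2 value lay above at least one NK value. Exons of Psma5 overlap 1700010K24Rik on the opposite strand.

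Among the non-catalytic beta subunits, Psmb2 (chr4:126677630-126709714) had the largest fold change of the ring. It stood at 47.2 and 42.5 normalized CPM in NK pools 1 and 2 and at 18.7 and 31.5 in T pools 1 and 2. The NK values were close together and above both T values, and the log2 fold change was 0.85 (SE 0.43, 95% interval -0.10 to 1.81, limma adjusted p = 0.457), or 0.49 without T pool 1. Blocked on the pool number, its unadjusted p was 0.0325, the only member under 0.05 in that fit (9.19% of all genes tested were, in the NK direction), and its adjusted p was 0.216. Psmb1 (chr17:15475021-15499751) was read at 248.5 and 206.3 in NK and 205.9 and 193.1 in T cells, where NK pool 2 and T pool 1 were nearly equal, giving 0.18 (SE 0.30, adjusted p = 0.851), or 0.05 without NK pool 1. Psmb4 (chr3:94884093-94886961) had 122.4 and 99.3 against 90.9 and 93.5, with a log2 fold change of 0.26.

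The 3 constitutive catalytic subunits differed in level and in the spread between pools. Psmb6 (caspase-like site, chr11:70525367-70527858) was read at 48.8 and 52.1 in NK pools 1 and 2 and 29.7 and 38.6 in T pools 1 and 2, and Psmb7 (trypsin-like site, chr2:38588036-38644087) at 46.8 and 41.8 against 33.6 and 29.8. In both genes the NK values lay above the T values, and neither passed the test, with log2 fold changes of 0.56 (SE 0.39, limma adjusted p = 0.602) and 0.47 (SE 0.39, adjusted p = 0.676). Exons of Psmb7 overlap Nek6 on the opposite strand. Psmb5 (chymotrypsin-like site, chr14:54614119-54618022) had only 9, 19, 13 and 4 reads in NK pools 1 and 2 and T pools 1 and 2, or 3.66, 6.74, 7.16 and 1.42 normalized CPM. Its groups overlapped and its pools ran in opposite directions, with a log2 fold change of 0.44 (SE 0.79, 95% interval -1.32 to 2.19, adjusted p = 0.870) that turned to -0.44 without T pool 2. As a fold the interval ran from 0.40 to 4.57, so whether Psmb5 differed between NK and T cells was not settled.

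**Figure D3:**
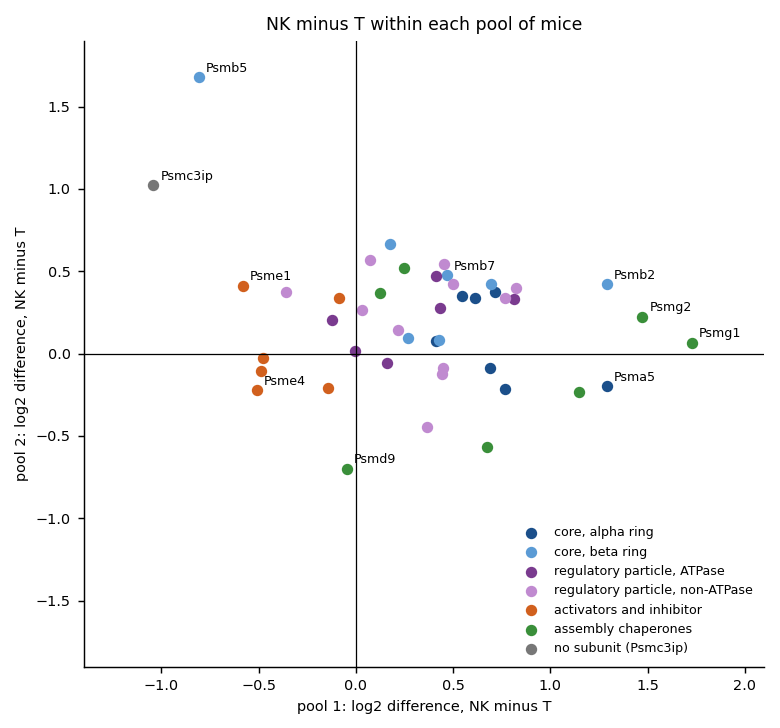
Log2 difference of (normalized CPM + 1), NK minus T, within pool 1 (horizontal axis) and within pool 2 (vertical axis), 1 point per tested gene, coloured by role. The upper right field holds 24 genes, and the activators (orange) have no point there; Psmb5 and Psmc3ip lie far to the upper left.

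With all 4 libraries the differences in the regulatory particle were smaller than in the core, and again none passed the test. Of 17 members, 16 had a log2 fold change above 0 (94.1%, against 50.9% of all genes tested). The class median was 0.18 (0.20 for the ATPases, 0.18 for the non-ATPases), and the lowest limma adjusted p was 0.538. For 9 of the 17 both NK values lay above both T values (52.9%, against 22.1% of all genes tested). The median moved to 0.32 without NK pool 1 and to 0.33 without T pool 2. Without NK pool 1 the core median was also 0.32. In edgeR without that library it was 0.28 for the core and 0.30 for the regulatory particle. The smaller difference in the regulatory particle thus depended on NK pool 1.

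The ATPases Psmc6 and Psmc1 had larger log2 fold changes than Psmc3, though none of them passed the test. Psmc6 (chr14:45329788-45349705) was read at 132.2 and 131.2 normalized CPM in NK pools 1 and 2 and 74.9 and 103.8 in T pools 1 and 2, so that the NK pools were nearly equal and above both T pools. Its log2 fold change was 0.57 (SE 0.33, limma adjusted p = 0.538). Psmc1 (chr12:100110154-100123405), whose yeast counterpart opens the core gate, had 145.6 and 151.4 against 109.0 and 109.1, with 0.44 (SE 0.31, adjusted p = 0.613). The pools of each type differed little in Psmc1, and on leaving out single libraries its fold change ranged from 0.41 to 0.47, while that of Psmc6 ranged from 0.34 to 0.81. Psmc3 (chr2:91054009-91066369), another gate-opening ATPase, was read at 118.8 and 109.2 against 118.9 and 108.1, so that each NK value was nearly equal to the T value of its pool. The 95% interval of its log2 fold change ran from -0.70 to 0.71 (estimate 0.01, adjusted p = 0.995), and the sign of the estimate turned under other scalings. Exons of Psmc3 overlap Slc39a13 on the opposite strand.

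Non-ATPases ranged from Psmd12 to Psmd7. Psmd12 (chr11:107479484-107504362), a scaffold subunit of the lid, had 50.4 and 63.5 normalized CPM in NK pools 1 and 2 and 28.1 and 47.8 in T pools 1 and 2. T pool 1 was far below the other libraries, and the log2 fold change was 0.61 (SE 0.41, limma adjusted p = 0.588), or 0.24 without T pool 1. Psmd7 (chr8:107580381-107588464), which pairs with the deubiquitinase Psmd14 in the lid, had 93.1 and 59.9 against 72.1 and 81.9, with the T values between the NK values and a log2 fold change of -0.04 (adjusted p = 0.976). Psmd14 itself was read at 65.9 and 81.9 against 46.3 and 60.9. Psmd1, a large scaffold of the base, had 154.2 and 166.6 against 90.3 and 131.8; its exons overlap Htr2b on the opposite strand and Gm21972 on the same strand. For the ubiquitin receptor Psmd4, with its CCGGAAG window shown above, T pool 1 was the highest library at 105.7 and T pool 2 the lowest at 64.5, with both NK values between them.

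The activators and the inhibitor were the only class with a median on the T side, and none passed the test. Of 6 members, 5 had a log2 fold change below 0 (49.1% of all genes tested were below 0), with a median of -0.21 and a lowest adjusted p of 0.738. Within pool 1 the median difference was -0.48, and within pool 2 it was -0.07. Without NK pool 1 the class median was -0.01.

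Psme1 and Psme2, neighbours on chromosome 14 (chr14:55578123-55581529 and chr14:55587441-55591113), encode the ring that activates the core for peptide cleavage and is induced by interferon gamma. Psme1 was read at 184.7 and 198.5 normalized CPM in NK pools 1 and 2, and at 277.0 and 148.8 in T pools 1 and 2. The T pools lay on either side of the NK values, and the fitted log2 difference was -0.08 (SE 0.36, limma adjusted p = 0.950) that was 0.36 without T pool 1. Exons of Psme1 overlap Emc9 on the opposite strand. Psme2 followed the same order of libraries in T cells, 74.9 in pool 1 and 47.5 in pool 2, against 70.4 and 60.3 in NK cells (0.12, adjusted p = 0.927).

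Psme2b (chr11:48945354-48946190) is a near-identical copy of Psme2: over 716 aligned bases of the transcripts 711 were the same (99.3%), and 47.7% of its 50-base stretches occur in no other transcript. It was read at 42.7 and 40.1 in NK and 47.4 and 46.4 in T cells, with a log2 fold change of -0.18 (adjusted p = 0.890). Both T values lay above both NK values, but reads of Psme2 and Psme2b may have been split between them, so both genes' values are uncertain. Psme2b also shares exon sequence on the same strand with 9930111J21Rik1.

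Psme3 (chr11:101316213-101323537), a nuclear activator, had 17.9 and 35.5 normalized CPM in NK pools 1 and 2 and 25.3 and 36.1 in T pools 1 and 2, where pool 2 exceeded pool 1 in both cell types. Its log2 fold change was -0.25 (SE 0.48, limma adjusted p = 0.875). Psme4 (chr11:30771726-30880361), a large nuclear activator tied to the breakdown of acetylated histones, had 41.5 and 41.1 against 59.5 and 48.2. Its T values lay above the NK values, and the log2 fold change was -0.37 (SE 0.37, 95% interval -1.20 to 0.46, adjusted p = 0.738). Psmf1 (chr2:151715812-151744186), an inhibitor of the core in vitro, had 26.4 and 41.1 against 37.4 and 44.3, with overlapping groups and -0.30 (SE 0.41, adjusted p = 0.822).

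Assembly chaperones had the lowest median level of the classes per kilobase of exon, 6.97 normalized CPM, though Psmg4 stood at 42.5 (rank 12 of 45). None of them passed the test. Of the classes they varied most between the NK pools, with a median gap of 0.65 on the log2 scale. Of 7 members, 6 had a log2 fold change above 0 (85.7%, against 50.9% of all genes tested). The class median was 0.38 (0.67 within pool 1 and 0.07 within pool 2), and the lowest limma adjusted p was 0.549. The median was 0.25 without NK pool 1, 0.18 without NK pool 2, 0.22 without T pool 1 and 0.58 without T pool 2. Psmg1 and Psmg2 form the pair that guides alpha ring assembly. Psmg1 (chr16:95979933-95990960) was read at 18.7 and 7.09 normalized CPM in NK pools 1 and 2 and 4.96 and 6.73 in T pools 1 and 2, and NK pool 1 alone stood high. Its log2 difference in the limma fit, 0.90 (SE 0.65, adjusted p = 0.621), was the largest of all members. Psmg2 had 29.3 and 18.8 against 9.91 and 15.9, with no overlap between the groups and an adjusted p of 0.549.

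Psmg4 (chr13:34162964-34178173), of the second chaperone pair for the alpha ring, had 36.6 and 19.1 in NK and 16.0 and 22.7 in T cells (0.46, SE 0.49, adjusted p = 0.754), with NK pool 1 again the highest library. Psmd9 (chr5:123169413-123250131), a chaperone of ATPase assembly, was read at 20.7 and 12.1 against 21.5 and 20.2, and only NK pool 2 was low (-0.37, adjusted p = 0.806). Its exons overlap Gm26745 on the opposite strand. Psmc3ip, which is no subunit, had 1.63 and 3.19 against 4.41 and 1.06, from 3 to 9 reads a library, and its exons overlap Mlx on the opposite strand.

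Summed over a class, NK libraries lay above T libraries for the core and regulatory particle and not for the activators. The core particle summed to 1559 and 1397 normalized CPM in NK pools 1 and 2 and to 1078 and 1228 in T pools 1 and 2, or 1478 ± 115 (SD, n = 2) against 1153 ± 106 (SD, n = 2), a ratio of 1.28. The regulatory particle summed to 1414 and 1444 against 1134 and 1226, a ratio of 1.21. For the activators and inhibitor the sums were 383.6 and 416.6 against 521.5 and 371.3, with the T pools on either side of the NK pools. The chaperones summed to 167.2 and 132.2 against 100.8 and 132.5, where NK pool 2 and T pool 2 were nearly equal. No test is given for these sums, and an exact two-sided permutation test of 2 against 2 libraries could not give a p below 0.333.

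Ratios within a library do not depend on its scaling. The core summed to 1.10 and 0.967 times the regulatory particle in NK pools 1 and 2 and to 0.951 and 1.00 times in T pools 1 and 2, so the groups overlapped. Activators and inhibitor over core stood at 0.246 and 0.298 in NK cells and 0.484 and 0.302 in T cells. The T pool 1 value stood apart, and T pool 2 lay next to NK pool 2. The cell division markers, which summed to 1153 and 647.1 in NK pools 1 and 2 and 922.4 and 505.3 in T pools 1 and 2, and the macrophage markers given above were highest in NK pool 1. Neutrophil markers, 5 of them with Ly6g at 0 throughout, summed to 92.5 in T pool 1 and to 12.8 to 23.4 in the other libraries. Most of the T pool 1 sum was S100a9 (62.8) and S100a8 (26.4). Csf3r had 1 read there, and Retnlg stood at 2.75, against 2.85 in NK pool 1. The part of these cells and programmes in the sums was not tested.

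**Figure D4:**
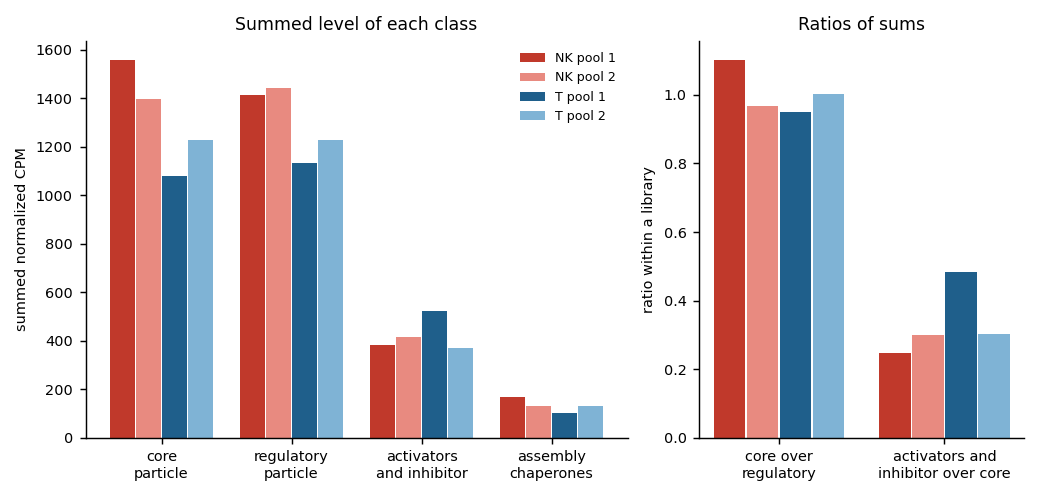
Left, summed normalized CPM of the core particle, regulatory particle, activators and inhibitor, and assembly chaperones in each library; right, the ratio of core to regulatory particle and of activators and inhibitor to core within each library. Bars are single libraries with no error bar, and the activator to core ratio is 0.484 in T pool 1 against 0.246 to 0.302 in the other libraries.

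Levels can be compared between genes only per length. Per kilobase of exon, the highest mean over the 4 libraries was that of Psme1, at 91.6 normalized CPM per kb, followed by Psmc1 at 66.6, Psma2 at 62.5 and Psma7 at 58.1. Psme1 was also first per kilobase of the longest coding transcript, where Psma7 came second and Psmc1 seventh. The medians per kb were 48.0 for the alpha ring, 22.6 for the beta ring, 37.6 for the ATPases, 18.7 for the non-ATPases, 22.8 for the activators and inhibitor and 6.97 for the chaperones. Psmb5 was among the lowest of all, at 5.28 normalized CPM per kb and rank 42 of 45, below Psmb7 at 11.1 and Psmb6 at 22.6. Exons of Psmb5 hold the microRNA gene Mir686 on the same strand, and 91.2% of its 50-base stretches occur in no other transcript.

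Each constitutive catalytic subunit has an immunoproteasome counterpart for the same site, and the levels per kb of exon give their shares. Psmb6 made up 40.8% and 50.4% of the Psmb6 and Psmb9 total in NK pools 1 and 2 and 44.8% and 44.3% in T pools 1 and 2. Psmb7 made up 22.5% and 26.3% of the total with Psmb10 in NK cells and 14.4% and 20.9% in T cells, so that the NK pools lay above the T pools. Psmb5 made up 7.19% and 14.8% of the total with Psmb8 in NK cells and 13.9% and 4.96% in T cells. The immunoproteasome subunit therefore had the higher level per kb at each site in every library, except at the Psmb6 site in NK pool 2. Exons of Psmb9 overlap Tap1 on the opposite strand, and those of Psmb8 overlap Gm20496. Without a stated strand setting their levels may hold reads of those genes, which would lower the shares of Psmb6 and Psmb5. Reads of Nek6, whose exons overlap Psmb7 on the opposite strand, would instead raise the share of Psmb7. The shares depend on the length used: per kb of the longest coding transcript, Psmb6 made up 37.4% to 46.8%, with no exception left, Psmb7 made up 27.6% to 44.7% and Psmb5 2.45% to 7.71%.

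**Figure D5:**
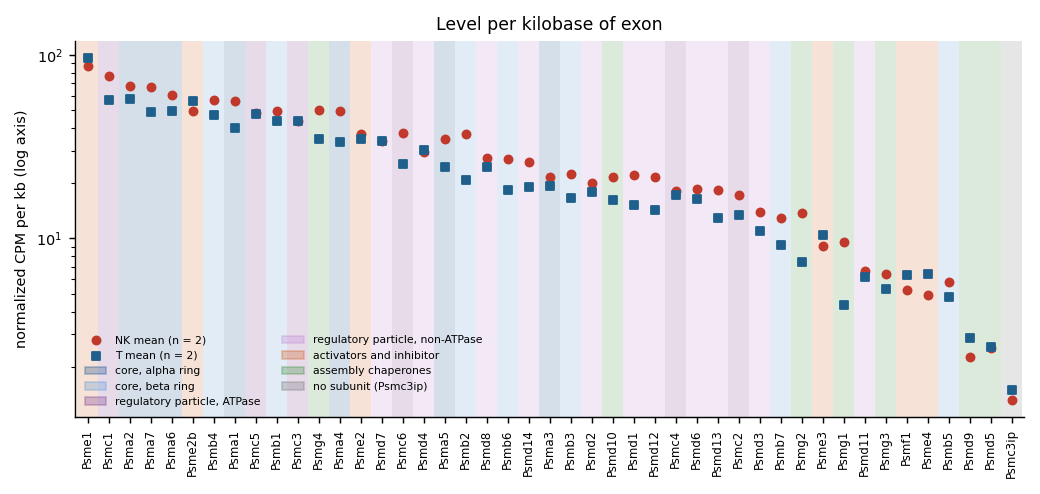
Mean normalized CPM per kilobase of exon (log axis) in NK cells (red circles, n = 2) and T cells (blue squares, n = 2) for the 45 tested genes, from the highest to the lowest, with the background shaded by role. Psme1 leads at 91.6 per kb, and the order closes with Psmd5 and Psmc3ip.

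Genes linked to the proteasome gave the same count. In 6 lists (the immunoproteasome, other subunits and assembly factors, associated enzymes and shuttle factors, transcriptional control of the subunit genes, ubiquitin and its activation, and the VCP unfoldase with its partners), 0 of 35 tested genes passed in limma or in edgeR, and 5 (14.3%) had an unadjusted limma p under 0.05. Both shares are near those of all genes tested, 2.31% and 12.8%. Of the 3 immunoproteasome genes, Psmb9 was read at 138.3 and 100.3 normalized CPM in NK pools 1 and 2 and 71.6 and 94.96 in T pools 1 and 2 (0.51, limma adjusted p = 0.596), Psmb8 at 177.7 and 146.1 against 166.3 and 102.0, and Psmb10 at 80.1 and 58.5 against 99.7 and 56.0. Psmb9 alone had both NK values above both T values.

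Pomp, the maturation factor that joins the beta ring to the alpha ring, had 294.5 and 189.7 normalized CPM in NK pools 1 and 2 and 178.4 and 94.3 in T pools 1 and 2. The groups did not overlap, and the NK value exceeded the T value within each pool. Its log2 fold change was 0.86 (SE 0.39, limma adjusted p = 0.387), and with the pool number as a block the adjusted p was 0.0409. In edgeR with that block it was 0.0816. The fold change was 0.40 without T pool 2, 0.54 without NK pool 1 and 1.32 without T pool 1. Zfand2a, an arsenite-inducible protein that binds the regulatory particle, had 7.73 and 14.2 against 28.1 and 53.2. Its T values were far above its NK values in both pools, with a log2 fold change of -1.79 (SE 0.52, adjusted p = 0.132) and an adjusted p of 0.00313 with the block; in edgeR it was 0.105 on all libraries and 0.0256 without T pool 1. The blocked fit called 8.28% of all genes. It left 1 residual degree of freedom, so its p-values rest mostly on the spread of genes of similar level. They say little of the spread of Pomp or Zfand2a between the pools.

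Nfe2l1, the transcription factor that raises subunit genes when the proteasome is inhibited, was read at 20.3 and 39.4 in NK pools 1 and 2 and 36.3 and 20.9 in T pools 1 and 2, with overlapping groups (0.04). Nfe2l2, its relative in the oxidative stress response, had 14.6 and 39.7 against 50.7 and 56.0 (-1.10, SE 0.49, limma adjusted p = 0.385). The T values lay above the NK values, and the NK pools were far apart. The other genes with an unadjusted p under 0.05 were Usp14, a deubiquitinase of the regulatory particle, at 72.8 and 44.3 against 29.7 and 23.4, and Zfand5, which binds the proteasome and stimulates it, at 113.5 and 86.5 against 60.0 and 46.8. Their adjusted p was 0.295 and 0.316. Among the partners of VCP the largest fold change was that of Faf2, a membrane adaptor, with 35.8 and 42.2 against 29.2 and 24.8 (0.51, adjusted p = 0.658).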

How the data were processed

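Per the labels' protocols, tumours were dissociated, filtered, enriched for immune cells on Percoll and sorted, and total RNA was sequenced on Illumina libraries. Tools listed in the submitters' processing notes, with no roles, are STAR 2.7.0f, Bowtie2 2.3.4.1, limma and FastQC, beside the build GRCm38.p6. How reads were counted, on which strand and how they were normalized was not stated in any source used here. The table deposited by the authors holds a normalized signal for 55450 genes. All non-zero values (100%, tolerance 0.001 reads) were whole multiples of the value of 1 read, and recomputed TMM factors (0.878 to 1.10) lay within 0.001 of the implied scaling, so the deposited signal was read as TMM-scaled CPM. Rows without a gene name (0.0198% to 0.0214% of reads) were left out.

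Where rows shared a symbol, that of highest mean was used, and 27 symbols turned into dates were restored. Genes with a mean of at least 1 were fitted as log2(value + 1) with limma 3.58.1 (eBayes with trend, R 4.3.3), NK minus T, Benjamini-Hochberg adjusted over 12105 genes. edgeR 4.0.16 and DESeq2 1.42.0 on the recovered reads, other pseudocounts, filters and scalings, a replicate block and leaving out each library were alternatives. The limma, edgeR and DESeq2 fits were unpaired, and the block was an alternative: the design text gives 1 pool of mice per number, but that NK and T libraries of one number share those mice is taken from it and not stated. The NK and T differences between pools correlated at 0.162 over the genes tested. Every 2 libraries differed by more than sampling noise, with a chi-square of 10.3 to 32.5 per degree of freedom. Lengths, coordinates and overlaps came from GENCODE M21 (GRCm38), and promoter sequences from RefSeq. The fit was also run on simulated counts, drawn without a pool effect and with changes only in genes of mean at least 5. No result given here rests on that run. Genes given in every library are, in each role class, those with the highest and lowest fold change and highest level per kb, the catalytic subunits, the activators and inhibitor, and the linked gene with the largest change of each list, 1 of which is not reported here. Psma1, Psma3, Psma5, Psmd1, Psmd4, Psmd14, Psme2b, Psmg2, Psmc3ip, Psmb8, Psmb10, Nfe2l1, Usp14 and Zfand5 were added after their values were seen. Members, gene lists, letter patterns and shown promoters were chosen with earlier results of these data known.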

Additional observations from a re-analysis of the deposited data

How the results depend on the processing

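The count of members called was 0 under each alternative run; limma with single libraries left out called no gene at all, so its count says nothing of the members. Medians of the core, the regulatory particle, their 4 subclasses, the activators and the chaperones kept their sign in each alternative. Over all genes, calls higher in NK and in T cells were 520 and 482 with the replicate block, 51 and 47 with a pseudocount of 0.1, 18 and 20 without the trend, and 459 and 433 in edgeR with the block, a setting chosen after seeing the data. DESeq2 called 220 higher in NK and 221 in T cells. Leaving out single libraries gave 0 to 0 calls in limma, and 159 to 260 (NK) and 164 to 226 (T) in edgeR, also added after seeing the data. That fit assumes that the lone library varies like the other group. Of the linked genes, 1 was called higher in NK (Pomp) and 1 in T cells (Zfand2a) with the block, 1 in T cells in edgeR with the block, and 0 to 1 in T cells in edgeR with single libraries left out. The block changed no call of a member. In limma it left 1 residual degree of freedom, so its p-values rest mostly on the spread of other genes.

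Leaving out single libraries moved the median of all members between 0.23 and 0.39 in limma and that of the regulatory particle between 0.23 and 0.33 (0.21 and 0.31 in edgeR). The log2 fold change of Psmc3 was -0.0086 in DESeq2, -0.0045 in edgeR, -0.0041 in edgeR with the block, -0.0092 with median-of-ratios size factors and -0.021 with scaling without ribosomal RNA. With single libraries left out, the sign turned in limma for 16 of the 45 members, Psma3 (-0.27 without T pool 1) and Psmd4 (-0.34 without T pool 2) among them. Among those named by the rule it turned for Psmc3 (-0.062 to 0.075; edgeR -0.092 to 0.073), Psmb5 (-0.44 to 1.31; edgeR -0.48 to 1.84), Psmd7 (-0.35 to 0.27; edgeR -0.38 to 0.27), Psme1 (-0.53 to 0.36; edgeR -0.56 to 0.36), Psme2 (-0.20 to 0.45; edgeR -0.23 to 0.46), Psme3 (-0.73 to 0.22; edgeR -0.79 to 0.19), Psmf1 (-0.63 in edgeR to 0.014 in limma) and Psmg4 in edgeR (-0.033 to 0.91). The cause was not tested. Without T pool 2, 4 members had an unadjusted limma p under 0.05, and the lowest adjusted p was 0.320. With a mean of at least 5 as the filter, Psmb5 was not tested. In the unblocked limma fit the smallest log2 fold change called over all genes was 1.31, above those of the members.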
